A study of Mus musculus with 19 samples.

Results

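The transcripts described here belong to the Dlk1-Dio3 imprinted cluster of distal mouse chromosome 12. The members, taken by gene symbol, were Dlk1, Meg3, Rtl1, Rian, Mirg and Dio3, which were 6 of the 23420 genes listed for each library. RNA-seq counts of read pairs were used from 19 libraries: 14 iPSC (induced pluripotent stem cells), 3 ESC (embryonic stem cells) and 2 EpiSC (epiblast-derived stem cells). The study set out to learn if iPSC made with 2 added inhibitors resemble ESC or EpiSC more in their expression, and for these genes the clone is the unit of interest.

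Genomic imprinting leaves a gene active on the copy inherited from only one parent. In this cluster the noncoding RNAs Meg3, Rian and Mirg are made from the maternal chromosome, and Rian and Mirg carry snoRNAs and miRNAs in their introns. The protein-coding genes Dlk1, Rtl1 and Dio3 are expressed mainly from the paternal chromosome. Methylation upstream of Meg3 sets which chromosome makes which transcript. Mouse iPSC clones are known to vary in whether they express the maternal RNAs.

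The NOD/ShiLtJ iPSC were male clones 3 and 35 and female clones 7 and 52, and the WSB/EiJ iPSC were male clones 12 and 25 and female clones 23 and 28. Both strains were classed by the study as non-permissive to iPSC derivation in medium without inhibitors, and their iPSC were made and kept in 2iS, a LIF and serum medium with added inhibitors of GSK3B (CHIR99021) and MEK (PD0325901). The 129S1/SvImJ iPSC, from a permissive strain, were male clones 1 and 17 and female clones 5 and 8 in ESC/LIF, the medium without inhibitors. Male clones 1 and 17 were sequenced again after being moved to 2iS, at passages 31 and 30. The other iPSC were at passages 16 to 26. ESC came from male NOD/ShiLtJ, WSB/EiJ and 129S1/SvImJ lines at passage 6, grown with both inhibitors, and EpiSC from a male NOD/ShiLtJ line at passage 38 and a male 129 line of 129/Sv background at passage 16, called 129 EpiSC here. Each iPSC library is 1 clone. The iPSC were reprogrammed from embryonic fibroblasts, pooled within a litter, with a lentivirus carrying Oct4, Klf4, Sox2 and c-Myc that was not removed. Feeder fibroblasts were depleted before RNA was taken from the iPSC. The ESC and EpiSC RNA came from frozen pellets, for which no depletion is described. In ESC and EpiSC the strain was represented by 1 line each. Medium and strain cannot be told apart where NOD/ShiLtJ or WSB/EiJ iPSC are set against 129S1/SvImJ iPSC in ESC/LIF. NOD/ShiLtJ and WSB/EiJ iPSC share the medium, and no test of these strains against each other was made here.

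Each library held 92996 to 567432 read pairs on genes, of 6082886 to 16307859 uniquely aligned pairs. The NOD/ShiLtJ male iPSC stood apart: 5.59% and 5.62% of their uniquely aligned pairs fell on genes, against 1.15% to 1.74% in the other 17 libraries. Of the 100 genes with the most counts that could be matched to the annotation, 38.7% and 40.0% had an exon lying opposite an exon of another strand's gene in the NOD/ShiLtJ males, against 84.9% to 93.3% in the other 17 libraries and 24.4% of all matched genes. The RNA library kit keeps strand, but the strand setting of the counting is not given in the sources used here. Read pairs listed under a gene and those of a transcript on its opposite strand therefore cannot be told apart here. The source name and characteristics of each sample name another condition than its title in all 19 libraries, and the conditions used here are those of the titles. Pluripotency markers (10 genes) summed to 2373 to 4659 CPM in iPSC, 2075 to 2666 in ESC and 493 to 535 in EpiSC, where Zfp42, Esrrb, Klf4 and Dppa5a had no count. The 10 markers of primed epiblast summed to 701 to 840 CPM in EpiSC, 141 to 443 in ESC and 70.0 to 258 in iPSC. CPM expresses a count relative to the read pairs on genes in its library, with TMM scaling, a correction for differences in composition between libraries.

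In GRCm38, the GENCODE models place Dlk1 at chr12:109452823-109463336, Meg3 at chr12:109541001-109571726, Rian at chr12:109603940-109661716, Mirg at chr12:109729764-109749460 and Dio3 at chr12:110279068-110281097, all on the plus strand. Rtl1 lies at chr12:109589193-109600330 on the minus strand, between Meg3 and Rian. Its exons share 516 bases with the miRNA genes Mir127, Mir136, Mir431, Mir432, Mir433 and Mir434 of the plus strand, and 1228 bases of Meg3 exon lie opposite Gm26906. The study's annotation may differ, since the RefSeq model of Rtl1 is longer, chr12:109564900-109604418. In RefSeq the noncoding 6430411K18Rik, known as the antisense RNA of Rtl1, also lies within it, at chr12:109591537-109592851. Read pairs listed under Rtl1 cannot be assigned to its coding transcript or to RNA of the opposite strand here.

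**Figure D1:**
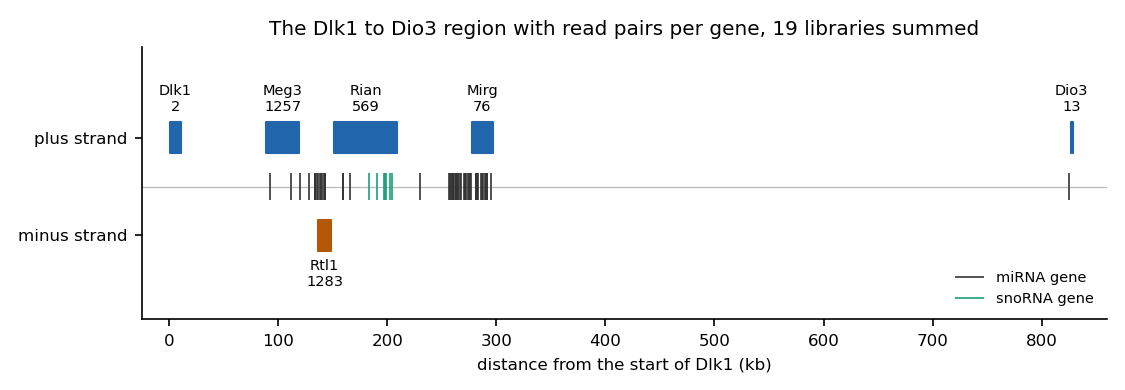
Map of the region in kb from the start of Dlk1 (GRCm38), with plus strand members above and Rtl1 below the line, and ticks for the starts of miRNA and snoRNA genes listed in the files. The number under each name is the sum of read pairs over 19 libraries: 1283 for Rtl1, 1257 for Meg3 and 569 for Rian, against 76 for Mirg, 13 for Dio3 and 2 for Dlk1.

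The Meg3 promoter is shown because the levels of Meg3 and its neighbours carry most of the differences between clones. It is the RefSeq promoter window at chr12:109540746-109541045, plus strand, GRCm38.p6, from 250 bases before to 50 bases after the start, with CG dinucleotides, the sites that DNA methylation acts on, in capitals.
Meg3 promoter: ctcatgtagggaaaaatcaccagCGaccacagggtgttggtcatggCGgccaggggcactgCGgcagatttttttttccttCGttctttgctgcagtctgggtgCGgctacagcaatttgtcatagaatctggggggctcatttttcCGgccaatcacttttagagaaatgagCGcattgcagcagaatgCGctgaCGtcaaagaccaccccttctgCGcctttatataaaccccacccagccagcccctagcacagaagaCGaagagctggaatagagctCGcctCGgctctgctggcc
The window held 13 CG, more than 62.1% of the 32851 promoter windows of the same length, whose median was 7. The hexamer TGCCGC, the core bound by the imprint-protecting zinc finger protein ZFP57 when methylated, contains 1 CG itself and matched 1 time, counting both strands, and 11.6% of all windows held it. The windows of Dlk1, Mirg and Dio3 held 9, 10 and 25 CG, and none of these held the hexamer. The Rian window, chr12:109603695-109603994, held 0 CG, and a second Meg3 window, chr12:109545148-109545447, held 1.

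The sequences of 5 miRNAs of the strand opposite Rtl1 are shown as annotated RNAs that lie opposite its exons. They are RefSeq mature sequences, written 5′ to 3′ with the seed, bases 2 to 8, in capitals.
miR-431-5p: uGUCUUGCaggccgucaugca
miR-433-3p: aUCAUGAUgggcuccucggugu
miR-127-3p: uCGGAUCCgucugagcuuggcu
miR-434-3p: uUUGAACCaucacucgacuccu
miR-136-5p: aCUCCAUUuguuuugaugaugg
Their 5 seeds differ from each other. Each sequence is fully complementary to a stretch of the only Rtl1 transcript in the annotation, which follows from its place on the other strand. The match began at base 5072 of the transcript for miR-431-5p, 3749 for miR-433-3p, 2642 for miR-127-3p, 965 for miR-434-3p and 199 for miR-136-5p. The 59 miRNA genes of the region had 17 read pairs between them and 50 had none.

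Of the 6 members, Meg3 and Rian were at 0 in the same 6 libraries, and Rtl1 was at 0 in 5 of those. Of 14 iPSC, 5 had no read pair on any of the 3, and 1 more, 129S1/SvImJ clone 17 in ESC/LIF, had 1 read pair in all, on Rtl1. The 8 others ranged from 9 to 181 read pairs on Rtl1 and from 3 to 691 on Meg3. The 5 ESC and EpiSC libraries had 21 to 90 read pairs on Meg3, so no ESC or EpiSC line was without it.

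Meg3, a maternally expressed long noncoding RNA, was at 467 and 405 CPM in NOD/ShiLtJ and 129 EpiSC and at 340, 186 and 269 CPM in NOD/ShiLtJ, WSB/EiJ and 129S1/SvImJ ESC. In iPSC it was at 813 and 242 CPM in NOD/ShiLtJ male clones 3 and 35, and at 193 and 436 CPM in female clones 7 and 52. In 129S1/SvImJ it was at 156 and 142 CPM in female clones 5 and 8, and at 27.4 and 0 CPM in male clones 1 and 17 in ESC/LIF. Of the WSB/EiJ iPSC, clone 23 was at 30.7 CPM, from 3 read pairs, and clones 12, 25 and 28 were at 0. Clones 1 and 17 in 2iS were at 0 as well. In the order of levels, NOD/ShiLtJ male clone 3 came first, the other 3 NOD/ShiLtJ iPSC lay within the range of the ESC and EpiSC, both 129S1/SvImJ females lay just below it, and the other 8 iPSC libraries were at most at 30.7 CPM. The counting intervals of neighbours in that order were apart at 2 places, below NOD/ShiLtJ male clone 3 and below 129S1/SvImJ female clone 8.

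Rian, a maternally expressed RNA that hosts snoRNAs, was at 249 and 168 CPM in the EpiSC and at 108, 35.5 and 26.9 CPM in NOD/ShiLtJ, WSB/EiJ and 129S1/SvImJ ESC. NOD/ShiLtJ iPSC clones 3, 35, 7 and 52 were at 333, 155, 113 and 249 CPM. The 129S1/SvImJ females were at 35.5 and 127 CPM. WSB/EiJ clone 23 had 2 read pairs and 129S1/SvImJ clone 1 in ESC/LIF had 1, and the remaining 6 iPSC libraries had none. The same 6 libraries had no Meg3 count.

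Rtl1, a retrotransposon-derived gene needed in the placenta, had the most read pairs of the members over all libraries. It was at 1568 and 329 CPM in NOD/ShiLtJ and 129 EpiSC and at 1156, 417 and 356 CPM in NOD/ShiLtJ, WSB/EiJ and 129S1/SvImJ ESC. The NOD/ShiLtJ females were at 525 and 810 CPM and the 129S1/SvImJ females at 703 and 707 CPM. NOD/ShiLtJ males clones 3 and 35 were lower on this scale, at 213 and 57.8 CPM. WSB/EiJ clone 23 was at 92.2 CPM, 129S1/SvImJ clone 1 in ESC/LIF at 64.0 and clone 17 at 11.3, the last from 1 read pair. The remaining 5 iPSC libraries were at 0. Neighbours in the order of Rtl1 levels had counting intervals apart at 3 places, below NOD/ShiLtJ EpiSC, below NOD/ShiLtJ ESC and below NOD/ShiLtJ male clone 3. These values compare one gene between libraries, and levels were not scaled to transcript length.

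Mirg, the third maternal RNA and a host of miRNAs, was counted mainly in the NOD/ShiLtJ males, with 51 and 14 read pairs in clones 3 and 35 (60.0 and 21.3 CPM). The other 17 libraries had 0 to 2. Dlk1, a transmembrane protein of the Notch ligand family, had 1 read pair in NOD/ShiLtJ EpiSC, 1 in WSB/EiJ clone 28 and none elsewhere. Dio3, the enzyme that inactivates thyroid hormone, had 0 to 3 read pairs per library and 13 in all. At this depth 3 read pairs correspond to 5.29 CPM in the deepest and 32.3 CPM in the shallowest library before TMM scaling, so Dlk1 and Dio3 were not detectable above that floor in most libraries rather than shown to be absent.

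**Figure D2:**
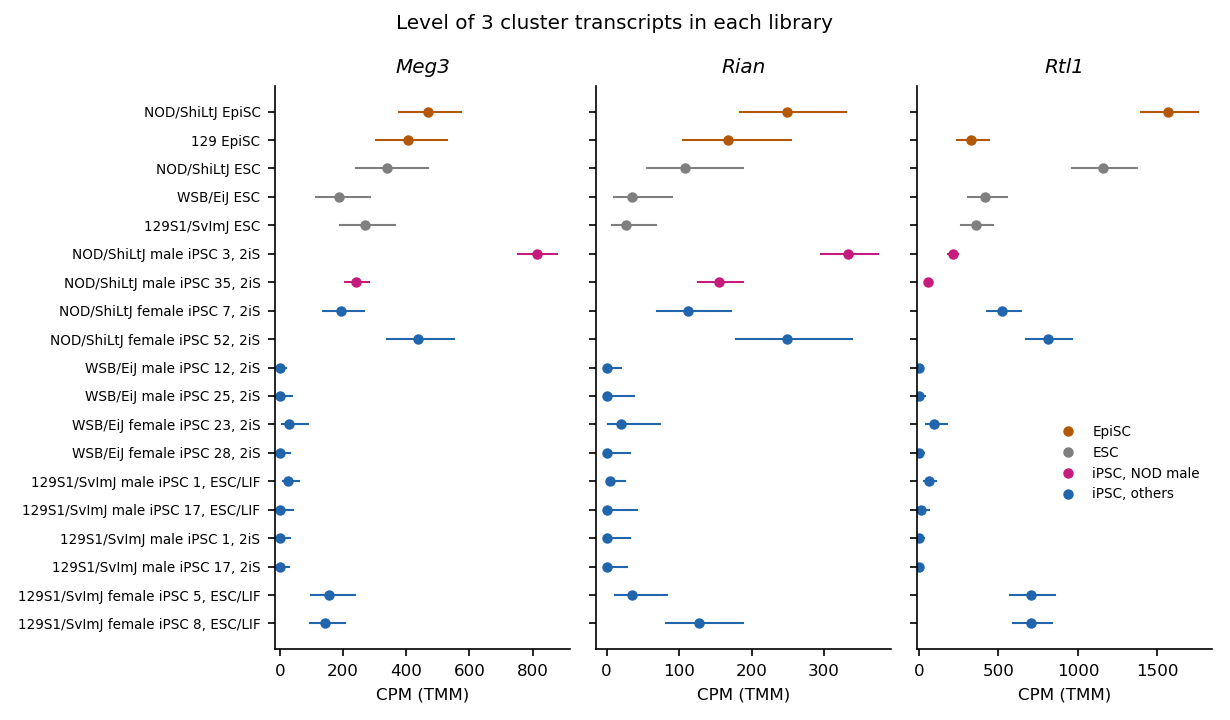
Level of Meg3, Rian and Rtl1 (CPM with TMM scaling, a linear axis per gene) in each of 19 libraries, with exact 95% Poisson intervals of the counts as bars. Meg3 lies at 142 to 813 CPM in the NOD/ShiLtJ iPSC and 129S1/SvImJ females and at 0 to 30.7 CPM in the other 8 iPSC libraries.

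In WSB/EiJ iPSC, male clones 12 and 25 had no read pair on Meg3, Rian or Rtl1, from 189587 and 99367 read pairs on genes, and female clone 28 had none from 107623. Female clone 23 had 3, 2 and 9 read pairs on Meg3, Rian and Rtl1 from 95702, the fewest of the 4. Its Rtl1 level had a 95% interval of 42.2 to 175 CPM, above the upper limits of 19.96, 37.2 and 31.7 CPM in clones 12, 25 and 28. The WSB/EiJ ESC line, with 115660 read pairs on genes, had 47 read pairs on Rtl1 and 21 on Meg3. These intervals cover counting error only.

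In 129S1/SvImJ iPSC in ESC/LIF, the females had 22 and 28 read pairs on Meg3 and 99 and 139 on Rtl1, and male clones 1 and 17 had 6 and 0 on Meg3 and 14 and 1 on Rtl1. Both females lay above both males for Meg3, Rian and Rtl1 in this strain, with 2 clones per sex. How many of all genes separate the sexes in this way was not counted, so no sex effect is read from it. In WSB/EiJ the sexes overlapped, since female clone 28 was at 0 like both males.

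To compare the sexes, WSB/EiJ and 129S1/SvImJ iPSC entered a fit of 12 iPSC in 6 groups of strain and sex, with the 129S1/SvImJ clones in ESC/LIF. Mean Rtl1 was 376 ± 382 CPM in females and 18.8 ± 30.6 CPM in males (SD, n = 4 each), 19.96-fold higher in females, and Rtl1 passed the test (edgeR quasi-likelihood, adjusted p = 0.0226). It was the only member higher of 3 tested, against 0.502% of all 4784 genes tested. Meg3, at 82.3 ± 78.6 against 6.86 ± 13.7 CPM, and Rian, at 45.8 ± 56.1 against 1.14 ± 2.29 CPM, did not pass (adjusted p = 0.351 and 0.283). The sex effect did not differ detectably between the strains (adjusted p = 0.948 for Rtl1, 0 of 3 members called by edgeR and 0 at an unadjusted p under 0.05). Of all 4784 genes tested, 0.0627% were called there, so 0 of 3 does not show that the effect was alike. The Rtl1 call rested on clone 23 and on male clone 12: adjusted p was 1.00 without the former and 0.104 without the latter. Fitted log2 fold changes are not given where a group had no count, because they then depend on the prior count of the fit.

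WSB/EiJ iPSC had less Rtl1 and Meg3 than 129S1/SvImJ iPSC in ESC/LIF. Mean Rtl1 was 23.0 ± 46.1 CPM in WSB/EiJ and 371 ± 386 CPM in 129S1/SvImJ (SD, n = 4 each), 16.11-fold higher in 129S1/SvImJ (adjusted p = 0.000587). Mean Meg3 was 7.68 ± 15.4 and 81.5 ± 79.3 CPM, 10.6-fold higher in 129S1/SvImJ (adjusted p = 0.0398). Rian, at 5.12 ± 10.2 and 41.8 ± 59.0 CPM, did not pass (adjusted p = 0.361). Thus 2 of 3 members tested were called, both lower in WSB/EiJ, where 11.5% of all genes tested were called in either direction. The levels of the strains overlapped, since 129S1/SvImJ male clone 17 had no Meg3 and less Rtl1 than WSB/EiJ clone 23. Without 129S1/SvImJ male clone 1 neither gene was called (adjusted p = 0.264 for Rtl1 and 1.00 for Meg3), and the Meg3 call was also lost without WSB/EiJ clone 12, 25 or 28 (0.126, 0.0550 and 0.0592). Between WSB/EiJ males and the 129S1/SvImJ males in 2iS, where medium and sex match, all 4 libraries were at 0 for the 3 genes and no comparison could be made.

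NOD/ShiLtJ females were at 0.947 times the 129S1/SvImJ female mean for Rtl1, 2.11 times for Meg3 and 2.22 times for Rian. Mean Rtl1 was 667 ± 201 against 705 ± 2.22 CPM, Meg3 314 ± 172 against 149 ± 9.89 CPM and Rian 181 ± 96.5 against 81.3 ± 64.7 CPM (SD, n = 2 each). None of the 3 passed the test (adjusted p = 0.940, 0.270 and 0.298, edgeR), against 4.35% of all genes tested. DESeq2 called 0 as well, and 1, Meg3, had an unadjusted p under 0.05. The 95% interval of the log2 difference was 0.09 to 2.02 for Meg3 and -0.87 to 0.69 for Rtl1, before adjustment for the number of genes.

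In the counts, the balance of the cluster differed between the NOD/ShiLtJ male iPSC libraries and those of the other iPSC. The same 2 male libraries stood apart in the share of aligned pairs on genes and of leading genes with an opposite exon. Whether the cells or the counting differed was not tested. Meg3 was at 527 ± 404 CPM in the males (SD, n = 2) and at 98.6 ± 140 CPM in the other 10 iPSC of the fit, a ratio of 5.35 (adjusted p = 4.25e-10). Rian was at 244 ± 126 and 54.9 ± 83.3 CPM, a ratio of 4.44 (adjusted p = 3.15e-09). For Rtl1 the means ran the other way, 135 ± 110 and 291 ± 348 CPM, a ratio of 0.465, whereas the fit, which averages 5 groups on a log scale with the WSB/EiJ males at 0, called it higher (adjusted p = 0.0477). Per uniquely aligned pair the ratios were 31.7 for Meg3, 26.2 for Rian and 2.75 for Rtl1, so the direction of the Rtl1 means turned with the scaling. With 3 of 3 members called higher, the background was 32.4% of all genes tested. The Rtl1 call was lost with DESeq2 (adjusted p = 0.497), without clone 3 (0.662), without WSB/EiJ clone 12, 25 or 28 (0.129, 0.0675 and 0.0702) and without 129S1/SvImJ male clone 17 (0.0541).

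Against NOD/ShiLtJ females alone, which share strain and medium, Rtl1 was lower in the males by 2.15 on the log2 scale (edgeR, adjusted p = 9.78e-05). The share of all genes called in this comparison was not counted. Between these males and the other iPSC of the fit, 58.9% of all genes tested were called in either direction. Meg3 and Rian were 1.68 and 1.35 times the female mean and did not pass (adjusted p = 0.0893 and 0.261). Per uniquely aligned pair in place of pairs on genes, the male to female ratio was 9.94 for Meg3, 8.00 for Rian and 1.19 for Rtl1, so the direction of Rtl1 turned with the scaling. The ratio between members within a library does not depend on the scaling. Rtl1 had 0.262 and 0.239 read pairs for each Meg3 read pair in male clones 3 and 35, and 0.811 to 4.96, with a median of 2.72, in the 9 other libraries with at least 10 Meg3 read pairs. The males lay outside that range. For Rian per Meg3 read pair the males, at 0.410 and 0.642, lay inside the range of 0.10 to 0.893. The share of aligned pairs on genes and the share of leading genes with an opposite exon set these same 2 libraries apart, and their part in the Rtl1 to Meg3 ratio was not tested.

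**Figure D3:**
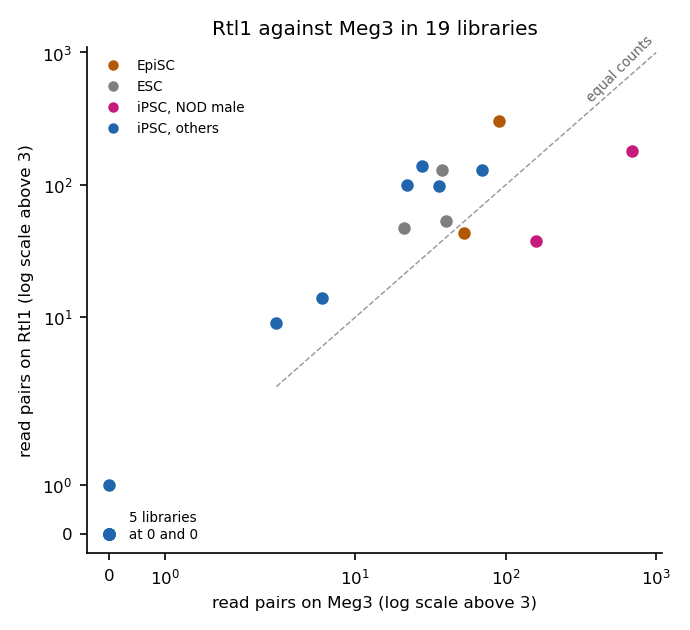
Read pairs on Rtl1 against read pairs on Meg3 in 19 libraries, both axes linear to 3 and logarithmic above, with a dashed line at equal counts. The NOD/ShiLtJ males lie below the line at 0.239 and 0.262 Rtl1 read pairs per Meg3 read pair, and 5 libraries lie at 0 for both genes.

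The transfer of 129S1/SvImJ male clones from ESC/LIF to 2iS tested the medium within a clone. Clone 1 had 14 read pairs on Rtl1, 6 on Meg3 and 1 on Rian in ESC/LIF and 0 on each in 2iS. Clone 17 had 1 on Rtl1 and 0 on Meg3 and Rian in ESC/LIF, and 0 on each in 2iS. Summed over both clones, the level in ESC/LIF was 4.01 times the floor in 2iS for Rtl1 and 1.61 times for Meg3. That floor is 3 counts over the 2 libraries in 2iS. These ratios leave out the counting error in ESC/LIF and are not lower bounds. The Rtl1 interval of clone 1 in ESC/LIF, 35.0 to 107 CPM, lay above the upper limit of 32.3 CPM in 2iS, and for clone 17 the intervals overlapped. No member passed the filter on low counts, so 0 of 0 members were called by edgeR, with or without the clone as a block, against 8.89% of the 2160 genes tested. The passage also differed between the media, 21 and 20 in ESC/LIF and 31 and 30 in 2iS, and cannot be told apart from the medium.

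**Figure D4:**
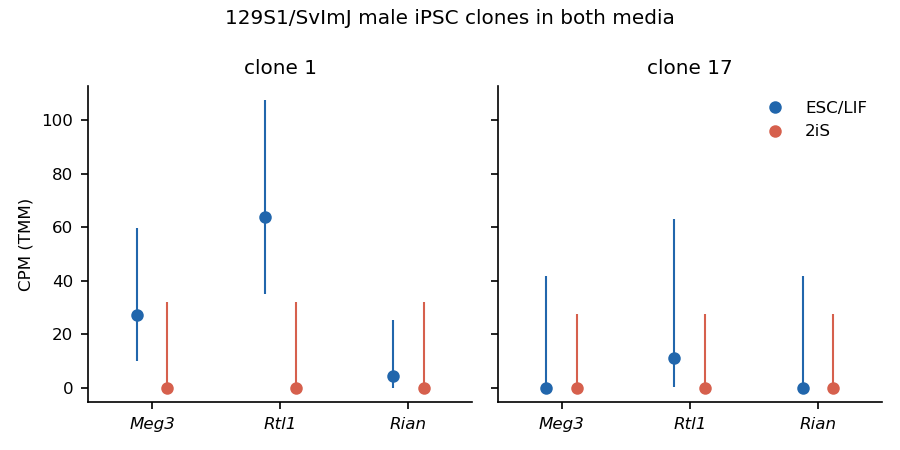
Meg3, Rtl1 and Rian (CPM with TMM scaling) in 129S1/SvImJ male iPSC clones 1 and 17 in ESC/LIF (blue) and 2iS (red), with exact 95% Poisson intervals. The Rtl1 interval of clone 1 is 35.0 to 107 CPM in ESC/LIF and ends at 32.3 CPM in 2iS, and the other pairs of intervals overlap.

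Compared with ESC and EpiSC, iPSC without the NOD/ShiLtJ males held lower mean levels, with a wide spread. Mean Meg3 was 82.1 ± 132 CPM in 12 iPSC, 265 ± 77.2 CPM in 3 ESC and 436 ± 44.1 CPM in 2 EpiSC. The 12 iPSC libraries come from 10 clones, since 129S1/SvImJ clones 1 and 17 enter in both media. Mean Rtl1 was 243 ± 335, 643 ± 445 and 948 ± 876 CPM, and mean Rian 45.8 ± 78.3, 56.6 ± 44.3 and 209 ± 57.4 CPM. The iPSC spanned from 0 to 436 CPM for Meg3 and so overlapped both other states. Between iPSC and ESC, 0 of 3 members tested passed (edgeR, adjusted p = 0.319 for Meg3, 0.494 for Rtl1 and 0.963 for Rian), against 6.22% of 3986 genes tested, with 0 at an unadjusted p under 0.05 and 0 by DESeq2. Without the clones moved to 2iS, mean levels over 10 iPSC were 98.6 ± 140 CPM for Meg3, 291 ± 348 for Rtl1 and 54.9 ± 83.3 for Rian, and 0 members were called against ESC and 0 against EpiSC. The log2 difference for Meg3 over the 12 libraries was -1.59 (SE 0.86).

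Between iPSC and EpiSC, 0 of 3 passed, against 28.3% of all genes, with log2 differences of -2.30 (SE 0.89, adjusted p = 0.0589) for Meg3, -2.04 (SE 0.91, adjusted p = 0.0990) for Rian and -1.94 (SE 1.10, adjusted p = 0.193) for Rtl1. Meg3 and Rian had unadjusted p under 0.05 and DESeq2 called 0. Meg3 was called without NOD/ShiLtJ female clone 7 (adjusted p = 0.0472), and Meg3 and Rian without clone 52 (0.00836 and 0.0188). Between ESC and EpiSC, 0 of 3 passed, against 15.1% of all genes, with 0 at an unadjusted p under 0.05 and 0 by DESeq2. Rian, at 3.69 times the ESC mean in EpiSC, had an adjusted p of 0.326.

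The ESC and EpiSC were male. In the 6 male iPSC libraries outside NOD/ShiLtJ, mean Meg3 was 4.57 ± 11.2 CPM, Rtl1 12.5 ± 25.6 CPM and Rian 0.762 ± 1.87 CPM. With male libraries only, 3 of 3 members fell below the ESC (adjusted p = 0.000232 for Meg3, 0.000905 for Rtl1 and 0.00230 for Rian) and 3 of 3 fell below the EpiSC (2.26e-05, 0.000170 and 2.40e-05). Of the 3220 genes tested there, 4.57% fell below the ESC and 15.9% below the EpiSC. Of these 6 libraries, 2 repeat clones 1 and 17, and the NOD/ShiLtJ males, which had counts of all 3, were outside this fit. Its ESC and EpiSC included NOD/ShiLtJ lines, so strain was not matched. The p-values treat the repeated clones as separate samples. Without a filter on low counts, 2, 3 and 1 members were called in the 3 comparisons of cell states, all lower in the first state named (iPSC against ESC, iPSC against EpiSC and ESC against EpiSC), where 3.06%, 7.54% and 2.27% of 16808 genes were lower.

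The summed level of 15 fibroblast markers, genes that feeder fibroblasts express, was higher in each ESC than in each of the 12 iPSC. It came to 1667 to 2404 CPM in ESC, 125 and 902 CPM in EpiSC, 270 to 949 CPM in iPSC without the NOD/ShiLtJ males, and 2451 and 3397 CPM in the NOD/ShiLtJ males. In ESC 13 of 15 had a count and Dcn and Pdgfra were at 0. In the NOD/ShiLtJ males 6 had a count, and Col1a2, Col3a1, Col6a2, Postn, Lum, Dcn, Tnc, Prrx1 and S100a4 were at 0. In the 12 iPSC 9 had a count and Col1a2, Postn, Tnc, Thy1, Prrx1 and S100a4 were at 0. In the NOD/ShiLtJ females 2 had a count, with sums of 853 and 949 CPM, so a sum can rest on few genes. Of 3 tested, 2 were lower in iPSC than in ESC, among them Col1a1, the main chain of type I collagen, with 64, 41 and 32 read pairs in 129S1/SvImJ, WSB/EiJ and NOD/ShiLtJ ESC and 0 to 3 in each iPSC library. NOD/ShiLtJ EpiSC, with the lowest marker sum of the 19 libraries, had the second highest Meg3. The part of fibroblast RNA in the ESC and NOD/ShiLtJ male levels of Meg3, Rian and Rtl1 was not tested. In bulk RNA, fewer cells with a transcript and less of it per cell cannot be told apart.

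**Figure D5:**
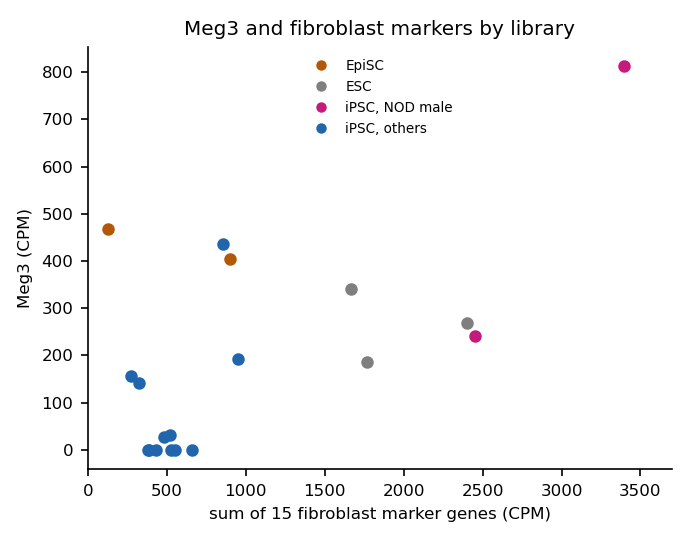
Meg3 (CPM) against the summed level of 15 fibroblast marker genes (CPM) in each of 19 libraries. The ESC lie at 1667 to 2404 CPM of markers with 186 to 340 CPM of Meg3, and the EpiSC reach 405 and 467 CPM of Meg3 at 902 and 125 CPM of markers.

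Over the 19 libraries, the genes whose log2 CPM was most like that of Rtl1, the member with the most read pairs, were Meg3 (Pearson r = 0.90) and Rian (0.83), followed by Arid1b, a chromatin remodelling subunit (0.79), A330009N23Rik (0.75) and Cpt1c (0.74), among 5676 other genes. Without the NOD/ShiLtJ males, over 17 libraries, r was 0.97 for Meg3 and 0.92 for Rian, and Mirg came at place 33 with 0.66. These values describe libraries that share depth and counting, and the libraries without counts weigh on them. Arid1b had 152 read pairs in all and 0 in 1 library, 129S1/SvImJ clone 17 in ESC/LIF.

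Of the 10 nearest genes on the flanks, 4 had counts in all 19 libraries, also in those without Meg3, Rian and Rtl1. Wars, a tRNA synthetase, was at 17.9 to 98.0 CPM, Ppp2r5c, a phosphatase subunit, at 41.0 to 149 CPM, Dync1h1, the dynein heavy chain, at 213 to 956 CPM and Hsp90aa1, a chaperone, at 390 to 3079 CPM. The remaining flanking genes had few read pairs over the 19 libraries, with 46 on 1700001K19Rik, 18 on Wdr25, 14 on B930059L03Rik, 5 on Begain, 4 on Slc25a47 and 0 on Mir345. Inside the region, 69 further genes of the files lie between Dlk1 and Dio3, and 2 of them reached 10 read pairs. The noncoding 6430411K18Rik, also known as the antisense RNA of Rtl1, had 24 read pairs, of which 8 were in 129 EpiSC. The snoRNA AF357359, inside Rian, had 24, of which 7 were in NOD/ShiLtJ female clone 52. Neither had more than 8 in a library.

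Among 19 proteins known to act on imprints or on the chromatin of such loci, 17 were tested by edgeR in the fits of cell state and of strain and sex. Of these, 6 were higher and 2 lower in iPSC set against EpiSC, where 28.3% of all genes were called in either direction. Tet2 and Dnmt3l rose by 4.33 and 5.08 on the log2 scale (adjusted p = 3.75e-05 and 0.000409), Zfp57, which protects methylated imprints, by 1.73 (adjusted p = 0.000964), and the Polycomb subunit gene Eed by 1.69 (adjusted p = 0.00298). Between ESC and EpiSC, 5 were higher in ESC, among them Tet2 (3.73), Dnmt3l (5.01), Zfp57 (1.77) and Tet1 (2.47), against 15.1% of all genes in either direction. Between iPSC and ESC, 0 of 17 passed (edgeR), with 1 at an unadjusted p under 0.05, where 6.22% of all genes passed. The median over the 17 was 0.53 for iPSC against EpiSC, beside 0.10 over all genes tested.

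Between WSB/EiJ and 129S1/SvImJ iPSC, 3 were lower and 1 higher in WSB/EiJ, against 11.5% of all genes in either direction. Tet1, which oxidises methylated cytosine, fell by 1.70 on the log2 scale (adjusted p = 2.69e-06), Eed by 0.92 (adjusted p = 0.0103) and Jarid2 by 0.65 (adjusted p = 0.0437), and Suz12 rose by 1.51 (adjusted p = 0.000102). After transfer of the 129S1/SvImJ male clones to 2iS, 2 of 15 tested were lower, where 8.89% of all genes were called in either direction. Jarid2 fell by 1.57 and Tet1 by 1.38 on the log2 scale (adjusted p = 1.30e-05 and 2.30e-05). In NOD/ShiLtJ males 9 were higher and 0 lower than in other iPSC, where 32.4% of all genes were higher. The log2 differences were 1.34 for Uhrf1 and 0.98 for Dnmt1, the maintenance methyltransferase (edgeR, adjusted p = 3.52e-06 and 2.78e-05). In either direction 58.9% of all genes tested were called there. These male libraries also stood apart in the share of aligned pairs on genes and of leading genes with an opposite exon. The part of this in the regulator differences was not tested. Between NOD/ShiLtJ and 129S1/SvImJ females 1 was higher, Suz12 with a log2 difference of 1.48, and 1 lower, Jarid2 with -1.34 (adjusted p = 0.00438 and 0.00447), against 4.35% of all genes in either direction. These are levels of RNA in these clones, and no methylation was measured here.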

How the data were processed

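The libraries were 14 of iPSC, 3 of ESC and 2 of EpiSC. For each, the authors deposited raw counts of read pairs per gene, made with HTSeq after trimming with Trimmomatic and alignment to GRCm38 (mm10) with TopHat2 2.1.1. The strand setting and the annotation are not given in the sources used here. Counts were used as deposited, and lines for pairs on no gene stayed out of library sizes. CPM used TMM factors from edgeR 4.0.16 in R 4.3.3. Groups were compared by the quasi-likelihood test of edgeR (filterByExpr, Benjamini-Hochberg adjusted p under 0.05 over all genes tested), which was tested on simulated data first, and with DESeq2 1.42.0 as an alternative. Intervals of levels are exact 95% Poisson intervals, and these and the floor of 3 counts cover counting error only. The 95% intervals of log2 differences come instead from the standard error of the edgeR fit and a normal distribution. The labels do not say that clones of a group came from separate reprogramming, so p-values measure the spread between these libraries.

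The replicate numbers of the 129S1/SvImJ males are clone numbers shared by both media. The deviations of a clone in both media correlated at r = 0.067 over 2160 genes, and the pairing is taken from the labels. Named genes were the members, genes of the region with at least 10 counts, the nearest 5 genes on each flank, a list of imprint regulators (up to 4 with the smallest p) and the 5 genes most like Rtl1, by Pearson correlation with a prior count of 2. Members, lists and rules were chosen with earlier results of these data known. The alternative without NOD/ShiLtJ males for likeness was chosen after seeing the data. Alternatives covered normalization, filter, threshold, labels, samples and each library left out.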

Additional observations from a re-analysis of the deposited data

Results flagged for a closer look

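Within groups of 4 iPSC of a strain, the library farthest from the others was compared with the range, in 15 pairs of gene and group that had a count, and 6 stood apart. With continuous values chance gives about 1 in 20, but where the other 3 libraries are at 0 any count sets the remaining library apart by construction, so this rate does not apply to those cases. In WSB/EiJ iPSC, female clone 23 stood apart from the other 3 for Rtl1 (92.2 CPM, 9 read pairs), Meg3 (30.7 CPM, 3 read pairs) and Rian (20.5 CPM, 2 read pairs), with the others at 0. These 3 cases come from 1 library and are not independent of each other. Clone 28 stood apart for Dlk1 and Dio3 at 8.60 CPM each, from 1 read pair each. In 129S1/SvImJ iPSC in ESC/LIF, female clone 8 stood apart for Mirg at 10.2 CPM, from 2 read pairs. The cases of Rian, Dlk1, Dio3 and Mirg rest on at most 2 read pairs, under the floor of 3.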

How the results depend on the processing

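Without the filter on low counts, members called were 2 between iPSC and ESC, 3 between iPSC and EpiSC, 1 between ESC and EpiSC and 1 between media. The last was Rtl1, lower in 2iS (edgeR, adjusted p = 0.0181). It rests on 14 and 1 read pairs in ESC/LIF against 0 in 2iS, and the share of all genes called there was not counted. Why the filter changed these counts was not tested. For the alternatives of method, labels, threshold and left-out libraries, shares of all genes called are not given. With male libraries only, 3 were called between iPSC and ESC and 3 between iPSC and EpiSC, and an adjusted p under 0.1 gave 2 for the latter. For WSB/EiJ against 129S1/SvImJ, where 2 were called, DESeq2 gave 1, and the males in 2iS gave 0, since no member passed the filter there. When conditions came from source names instead of titles, members called were 0 for NOD/ShiLtJ males, 0 for WSB/EiJ against 129S1/SvImJ, 0 for sex and 1 for the medium, and Rtl1 turned to -0.45 for NOD/ShiLtJ males and to 1.10 for WSB/EiJ. Against NOD/ShiLtJ females alone, 1 member was called in the males, Rtl1 at -2.15, and the share of all genes called there was not counted. Leaving out each library gave 0 to 2 members for iPSC against EpiSC, 2 to 4 for NOD/ShiLtJ males, 0 to 2 for WSB/EiJ against 129S1/SvImJ, 0 to 1 for sex, and 0 for the other 4 comparisons. The clone as a replicate block was fitted for the media only. No member passed the filter there, so its 0 members called could not have been otherwise. Of 161 alternative counts of members called, 139 stayed within 1.5 times the count in the report. Many of these belong to comparisons with 0 members called, where staying means 0 again, and for the media no member was tested. Where members were called, 12 counts stayed and 7 moved for WSB/EiJ against 129S1/SvImJ, 15 and 3 for sex, and 17 and 2 for NOD/ShiLtJ males. Per uniquely aligned pair, the ratio of NOD/ShiLtJ males to the other 10 iPSC was 31.7 for Meg3, 26.2 for Rian and 2.75 for Rtl1. Depth limits the zeros: 3 read pairs are 13.7 to 33.9 CPM in the 129S1/SvImJ males.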

Other observations

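Chosen after the values were seen, genes were counted that had no read pair in at least 5 of the 14 iPSC and at least 100 CPM in at least 4. Of 2069 genes at 100 CPM or more in at least 4 iPSC, 9 met both conditions. They were Meg3, Rian, Rtl1, B4galnt2, Gm16325, H2-T10, Ly6e, Mmp9 and Sycp1. The limit of 5 equals the number of iPSC libraries in which Rtl1 had no read pair, and Meg3 and Rian had none in 6 each. That these members are among the 9 therefore follows from the chosen limits and is no test of them. The male clones sequenced in both media were counted once per medium among the 14 iPSC. Meg3 was at or above 100 CPM in 6 iPSC, and Rtl1 and Rian in 5 each.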
